A study of Mus musculus with 36 samples.

Results

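Nuclear copies of mitochondrial genes are stretches of mitochondrial DNA (mtDNA) that were inserted into a chromosome of the nucleus. The 6 copies described here are Gm10925 (ENSMUSG00000100862), Gm28661 (ENSMUSG00000102070), Gm13340 (ENSMUSG00000083563), Gm13339 (ENSMUSG00000082884), Gm10222 (ENSMUSG00000067736) and Gm28438 (ENSMUSG00000101939), each annotated as a pseudogene. They are 6 of 55825 genes listed in at least 1 of 6 deposited count tables, and all 6 copies are among the 51413 genes listed in every table. They were picked as nuclear pseudogenes similar to mtDNA, and because several of them differed between diets in sperm and in morulae. The members were thus chosen by their measured counts on HFD against LFD in these cells, and those values are given below as a description with no test. The libraries analysed hold RNA of 2 cell types. Cauda spermatozoa, the mature sperm of the last segment of the epididymis, were taken by swim-up from C57BL/6 wildtype males (C57BL/6N in the study's methods) fed a high-fat diet (HFD, 3 libraries) or a low-fat diet (LFD, 3 libraries) for 2 weeks, starting as young adults. Morulae, embryos before the blastocyst stage, came from in vitro fertilization of oocytes of unexposed wildtype females with sperm of HFD-fed (3 libraries) or LFD-fed (3 libraries) fathers. All libraries were made with a Nextera kit, and reads were single-ended for sperm and paired-ended for morulae. Libraries are called a, b and c within a group, and for morulae HFD and LFD name the diet of the father.

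The mtDNA encodes subunits of the respiratory chain, and its transcripts are made inside the organelle. The Nd genes encode subunits of complex I, the Co genes subunits of cytochrome c oxidase (complex IV), and Atp6 and Atp8 subunits of ATP synthase. The nuclear genetic code differs from the mitochondrial one, and nuclear copies of mtDNA genes are annotated as pseudogenes. A recent insertion is nearly identical to mtDNA, so a short read from such a stretch matches both places in the genome. What was counted for a copy therefore depends on its sequence, which is shown first.

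Each of the 6 copies lies on the minus strand of the GRCm38 build, in 1 of 2 blocks. The block on chromosome 1 spans chr1:24611535-24616197, which is 4663 bases with 7 annotated copies, and matches mtDNA positions 6390 to 11042. Gm10222 (294 bases, chr1:24612407-24612700), Gm28438 (345 bases, chr1:24612775-24613119), Gm10925 (678 bases, chr1:24613974-24614651) and Gm28661 (681 bases, chr1:24614885-24615565) lie in it in that order. Their best matches are mt-Nd4l, mt-Nd3, mt-Atp6 and mt-Co2, so the copies keep the gene order of the mitochondrial genome. Gm10222 overlaps its neighbour Gm28439, a copy of mt-Nd4, by 4 bases. The block on chromosome 2 spans chr2:22587291-22590533, which is 3243 bases with 3 annotated copies, and matches mtDNA positions 4442 to 7696. Gm13340 (1545 bases, chr2:22588103-22589647) matches mt-Co1 and Gm13339 (510 bases, chr2:22590024-22590533) matches the 3′ part of mt-Nd2, up to its base 1038. Both lie within an intron of Myo3a, a myosin gene on the opposite strand, and overlap none of its exons.

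**Figure D1:**
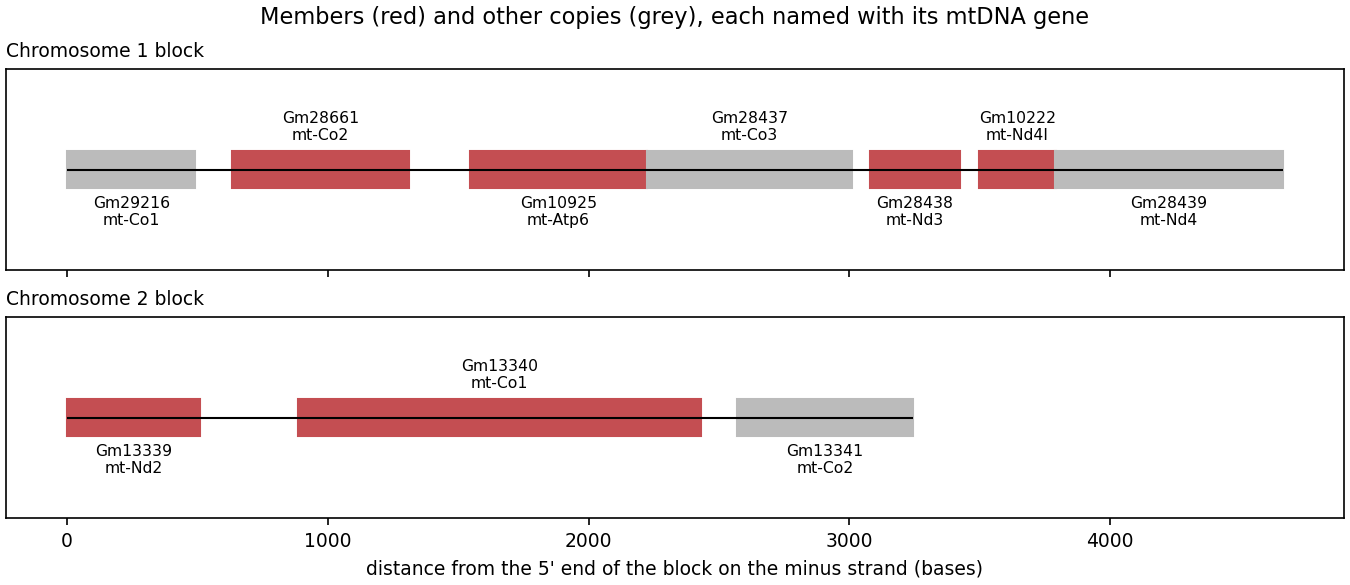
Map of the blocks on chromosome 1 (top) and chromosome 2 (bottom), with the distance in bases from the 5′ end of each block on the minus strand on the x axis. The 6 copies described here are drawn in red and the other annotated copies in grey, each named with the mtDNA gene it matches. The chromosome 1 block holds 4 of the 6 copies and the chromosome 2 block the other 2.

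The first bases of Gm10925 and Gm28661 are shown because they are the case of full identity. Sequences are those of the GENCODE M21 transcripts, 5′ to 3′ on the strand of the gene, with capitals for bases that differ between copy and mtDNA gene. Gm10925 is read from chr1:24614577-24614651 and mt-Atp6 from MT:7927-8001, and they hold no capital.
Gm10925: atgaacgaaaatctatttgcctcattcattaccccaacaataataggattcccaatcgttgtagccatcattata
mt-Atp6: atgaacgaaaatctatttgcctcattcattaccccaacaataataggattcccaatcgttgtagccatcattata
Gm28661 is read from chr1:24615491-24615565 and mt-Co2 from MT:7013-7087, and they too hold no capital.
Gm28661: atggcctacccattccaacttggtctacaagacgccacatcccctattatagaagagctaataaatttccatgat
mt-Co2: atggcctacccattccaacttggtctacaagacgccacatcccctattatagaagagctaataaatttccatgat
Along their full annotated lengths Gm10925, Gm28661 and Gm10222 had no mismatch to mt-Atp6, mt-Co2 and mt-Nd4l. Every window of 75 bases in these 3 copies is also found in mtDNA, so that no read of this length from within them can be told from mtDNA by sequence.

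Gm28438 differed from mt-Nd3 at 1 base of 345, T3C, counted from the first base of the mtDNA gene, with the mtDNA base before the position and the base of the copy after it. The start of both is shown for that base, from chr1:24613045-24613119 and MT:9459-9533.
Gm28438: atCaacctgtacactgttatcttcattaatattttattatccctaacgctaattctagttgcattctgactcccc
mt-Nd3: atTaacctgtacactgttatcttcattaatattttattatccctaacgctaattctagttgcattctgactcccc
The difference lies so close to the start that 268 of 271 windows of 75 bases (98.9%) were still found in mtDNA.

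The pair of copies on chromosome 2 have diverged. Gm13340 was 97.6% identical to mt-Co1, with 37 mismatches, of which 33 are transitions and 31 fall on the third base of a codon. The stretch of 75 bases shown holds 5 of them, A462G, A468G, T501C, C519T and G534A, and runs over chr2:22589114-22589188 in the copy and MT:5787-5861 in mtDNA.
Gm13340: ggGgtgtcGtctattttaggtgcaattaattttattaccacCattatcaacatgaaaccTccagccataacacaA
mt-Co1: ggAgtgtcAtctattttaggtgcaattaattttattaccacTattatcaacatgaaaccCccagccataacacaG
Gm13339 was 96.7% identical to mt-Nd2 over its length, with 17 mismatches, of which 15 are transitions and 12 fall on the third base of a codon. Its stretch shows T711C, T726C, C759T, C780T and T781C, over chr2:22590281-22590355 and MT:4620-4694.
Gm13339: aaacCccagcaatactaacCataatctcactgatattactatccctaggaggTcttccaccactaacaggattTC
mt-Nd2: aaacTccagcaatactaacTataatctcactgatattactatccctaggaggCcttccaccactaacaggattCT
Of the 75-base windows, 220 of 1471 (15.0%) in Gm13340 and 55 of 436 (12.6%) in Gm13339 were found in mtDNA, and with windows of 50 bases the shares were 27.5% and 17.6%. Most windows of read length in these copies therefore hold at least 1 base that tells them from mtDNA. How the authors' counting treated reads that match more than 1 place, and whether it used strand, is not given in the sources used here.

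The same question was asked of the mtDNA genes. Of the 13 that encode proteins, 5 had more than 90% of their 75-base windows in some nuclear copy: mt-Co3 (99.9%), mt-Co2 (99.5%), mt-Atp6 (99.5%), mt-Nd4l (98.7%) and mt-Nd3 (97.8%). The share was 61.5% for mt-Nd4, 39.8% for mt-Co1 and 5.71% for mt-Nd2, the partners of Gm28439, Gm13340 and Gm13339. A search of all annotated transcripts for matches with 90% identity or more, over 80% or more of their length, gave 16 nuclear copies, the 6 described here and 10 others.

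Total counts ran from 2560219 to 4062321 in sperm and from 11471251 to 12153141 in morulae. Genes of mtDNA held 78.1 to 84.3% of the counts in sperm on HFD, 43.5 to 64.7% in sperm on LFD, and 22.8 to 26.9% in morulae. Sperm LFD library c stood apart with the 43.5%, the other LFD libraries being at 63.4% and 64.7%. Sperm libraries had counts for 7 or 8 of 8 sperm markers and morulae for 8 of 8 morula markers. Where a library has 0 counts of a gene, up to 3 counts could still be expected, equal to 0.247 to 1.17 CPM (counts scaled to a library total of 1000000) in these libraries, with counting error alone taken into account. Nothing in the labels ties a library to an animal or a culture, so the spread between libraries may be technical. In such bulk libraries fewer cells of a type and less RNA per cell cannot be told apart.

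In sperm each of the 6 copies had more counts relative to other genes on HFD than on LFD. The values that follow are CPM scaled by TMM, edgeR's trimmed mean of M-values, which takes most genes as not different. Gm10925, the copy of mt-Atp6, had 43.9, 32.6 and 47.9 CPM in HFD libraries a, b and c and 8.71, 8.32 and 5.67 CPM in LFD libraries a, b and c. Gm28661, the copy of mt-Co2, had 39.3, 22.8 and 27.4 CPM on HFD against 5.27, 7.68 and 3.37 CPM on LFD. Gm10222, the copy of mt-Nd4l, had 60.2, 35.4 and 48.6 CPM against 7.33, 8.32 and 9.05 CPM. In these 3 identical copies the lowest HFD library lay above the highest LFD library.

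The copies on chromosome 2 had the same order of groups. Gm13340 was the most counted of the 6 in sperm, with 406, 162 and 209 CPM on HFD and 54.5, 65.2 and 24.5 CPM on LFD. Gm13339 had 22.3, 11.6 and 21.8 CPM on HFD and 2.52, 5.54 and 2.76 CPM on LFD. Library a was the highest HFD library for both, and the groups did not overlap for either. Gm28438, the copy of mt-Nd3, was nearly uncounted, with 8, 15 and 6 counts on HFD and 5, 2 and 2 counts on LFD. It did not pass the filter on low counts in sperm.

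**Figure D2:**
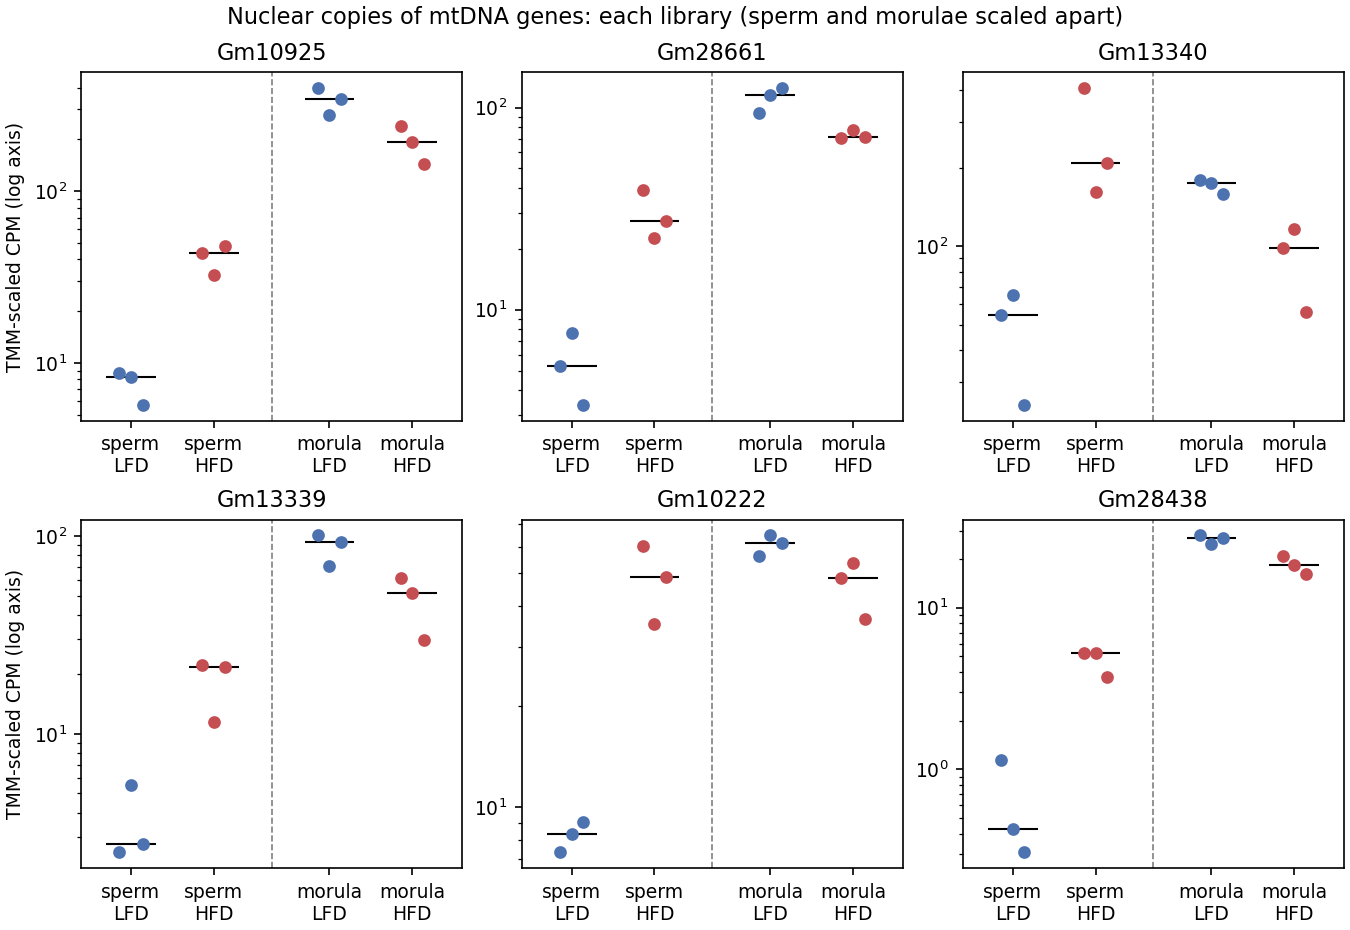
TMM-scaled CPM on a log axis for each of the 6 copies in each library, with sperm to the left and morulae to the right of a dashed line, points for libraries and bars for group medians. Sperm and morulae were scaled apart and are not to be compared across the line. The HFD points lie above the LFD points in sperm and below them in morulae for all 6 copies, as with Gm10925 at 32.6 to 47.9 against 5.67 to 8.71 CPM in sperm and 144 to 240 against 279 to 397 CPM in morulae.

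The fitted log2 changes in sperm, HFD over LFD, were 2.54 ± 0.51 for Gm10222, 2.45 ± 0.53 for Gm10925 and 2.45 ± 0.60 for Gm28661. They were 2.43 ± 0.55 for Gm13340 and 2.35 ± 0.70 for Gm13339. The SE follows ±, with n = 3 and 3 here and below except in the fit of all 12 libraries. The 5 copies that passed the filter lay within 1 SE of each other, whether identical to mtDNA or diverged. Their median was 2.45 beside a median of -0.07 over the 8643 genes tested. All 6 copies had groups that did not overlap, with HFD higher, as did 8.21% of the genes tested. No gene of the 8643 (0%) passed an adjusted p of 0.05 in edgeR's quasi-likelihood test with Benjamini-Hochberg adjustment, 1124 had an unadjusted p under 0.05, and DESeq2 called 286 (3.31%). These shares are the background to a choice already made on this contrast, and nothing was read from them about the copies.

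These values depended on what the counts were divided by. Scaled by library totals in place of TMM, the changes of the same 5 copies were 0.58 to 0.76, and the median of all genes tested was -1.82. By totals the groups of Gm10925 (22.4, 22.9 and 20.9 against 13.0, 12.8 and 14.5 CPM) and Gm28661 (at least 12.0 against at most 11.8 CPM) did not overlap, and those of the other 4 copies did. The background for that count was 0.555% of genes. Divided by the summed counts of the mtDNA genes, no copy separated the diets. With the mtDNA counts taken in place of the library total for CPM, Gm10925 had 26.6, 29.3 and 26.5 on HFD and 20.6, 19.8 and 33.2 on LFD, and Gm13340 had 246, 146 and 115 against 129, 155 and 144.

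Other values moved with diet in the same sperm libraries, and which of them did depended on the scaling. By library totals the summed level of 6 epididymal epithelium markers was 1638 to 2879 CPM on HFD and 3016 to 24980 CPM on LFD, with 3 or 4 of the 6 detected. With TMM the groups overlapped, at 3753 to 4093 against 2013 to 9808 CPM. Most of it was Crisp1, a secreted protein of the epididymis, at 5742 to 10577 counts on HFD and 7207 to 60122 on LFD, while Spint4 was at 0 in every library and Lcn5 and Lcn8 had 5 counts at most. The 8 morula markers, of which 2 to 4 had counts, were lower on HFD by library totals, at 26.1 to 66.2 against 112 to 225 CPM, and overlapped with TMM, at 59.8 to 94.2 against 74.5 to 88.2 CPM. The number of genes detected, 13007 to 16236 on HFD and 17284 to 19547 on LFD, did not overlap. The sperm, leukocyte and erythroid markers overlapped by library totals and were higher on HFD without overlap with TMM, the scaling of the values of the copies above. The 8 sperm markers summed to 3012 to 5492 CPM on HFD and 2694 to 5634 CPM on LFD by totals, and to 4283 to 12582 against 1058 to 3760 CPM with TMM. All 6 leukocyte markers were detected, at 60.6 to 84.2 against 64.5 to 115 CPM by totals and 120 to 141 against 43.1 to 51.8 CPM with TMM. All 5 erythroid markers were detected too, at 124 to 250 against 32.4 to 204 CPM by totals and 264 to 491 against 12.7 to 136 CPM with TMM. The part of these values, and of the share of mtDNA counts, in the values of the copies was not tested. Without LFD library c the median change of the copies was 2.21.

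The mtDNA genes, none of which is among the chosen copies, had the same sign as the copies in sperm. All 18 that passed the filter had positive changes, from 0.64 to 2.59 with a median of 2.15, beside the -0.07 of all genes with TMM. By library totals 15 of the 18 were positive and mt-Ti, mt-Tm and mt-Tl2 negative, from -0.98 to 0.87 with a median of 0.47, beside -1.82 for all genes. None of the 18 was called by edgeR, 13 had an unadjusted p under 0.05 and the lowest adjusted p was 0.231, whereas DESeq2 called 14 of them higher on HFD. The change was 2.13 ± 0.75 for mt-Co1 (adjusted p = 0.272), the partner of Gm13340, and 2.43 ± 0.64 for mt-Nd2 (adjusted p = 0.231), the partner of Gm13339. The partners of the identical copies could not be followed in sperm. mt-Co2 and mt-Nd4l were at 0 in all 6 sperm libraries and mt-Atp6 had 1 count in 1 library, while Gm28661, Gm10222 and Gm10925 had 22 to 65, 32 to 101 and 37 to 93 counts. mt-Nd3 had 9 to 19 counts. Counts in sperm were thus lower for mt-Co2, mt-Nd4l and mt-Atp6 than for their copies, whereas mt-Co1 had 18993 to 58063 counts beside 160 to 620 for Gm13340. mt-Co3, with 99.9% of its windows in a copy, had 0 or 1 counts in sperm libraries, and mt-Atp8 had 0. No 75-base read from within the 3 identical copies can be told from mtDNA by sequence, so these counts do not separate the sources.

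The 10 other copies were in the same position. In sperm 9 of them were tested, all with positive changes from 2.07 to 2.59 and a median of 2.34 with TMM. By library totals the changes were 0.31 to 0.97 with a median of 0.65, and by totals of mtDNA counts -0.30 to 0.52 with a median of 0.13, where Gm11408 was negative. With TMM edgeR called none of the 9, with an unadjusted p under 0.05 for each and a lowest adjusted p of 0.231, and DESeq2 called all 9. Gm11410, a copy of mt-Cytb, had the highest value at 2.59 ± 0.71, and Gm11408, a copy of mt-Nd6, the lowest at 2.07 ± 0.62.

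**Figure D3:**
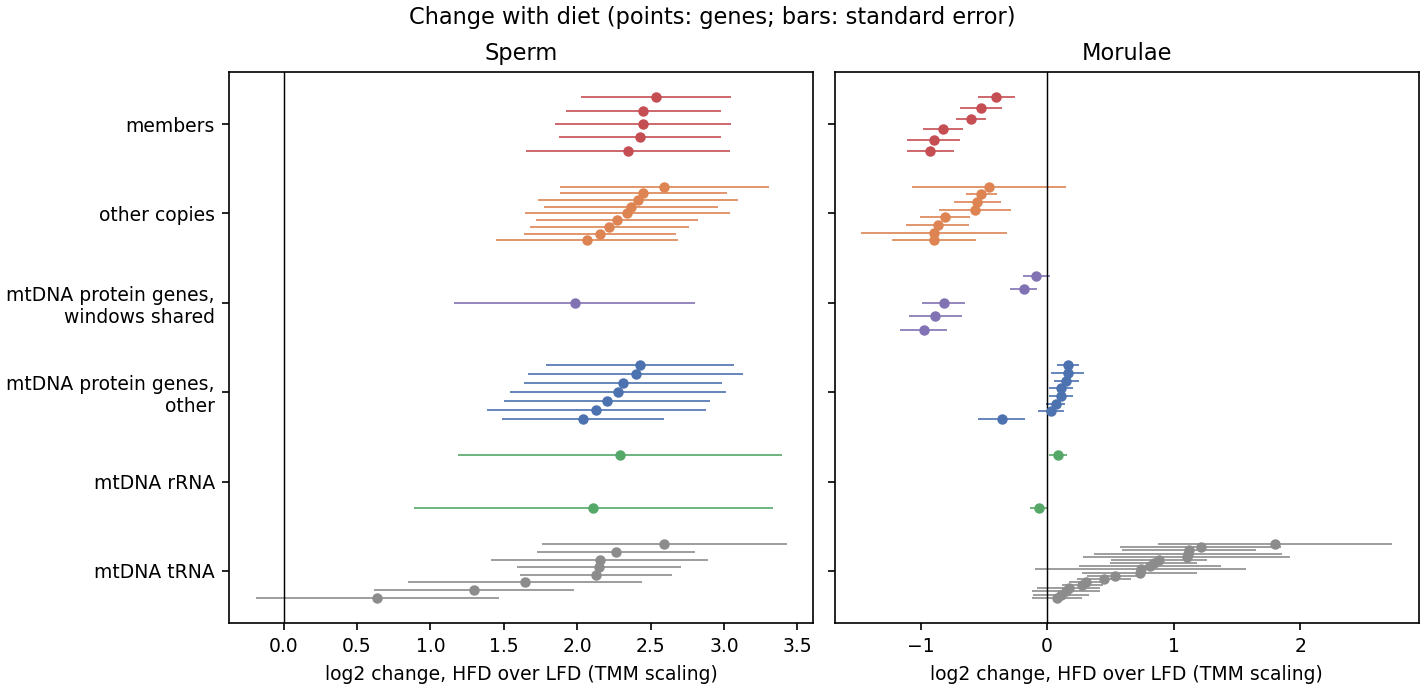
Log2 change HFD over LFD with its SE for the 6 copies, the other nuclear copies and the mtDNA genes, in sperm and in morulae. In sperm the medians of the 3 lists are 2.45, 2.34 and 2.15. In morulae the copies have medians of -0.71 and -0.69, and the mtDNA genes a median of 0.16. Gm28438 is missing in sperm, where it did not pass the filter.

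In morulae the order of the diets was the opposite. Each of the 6 copies had fewer counts in morulae of HFD-fed fathers than in those of LFD-fed fathers. Gm10925 had 240, 194 and 144 CPM in HFD libraries a, b and c and 397, 279 and 345 CPM in LFD libraries a, b and c. Gm28661 had 71.0, 77.3 and 71.2 CPM on HFD and 93.9, 115 and 125 CPM on LFD. Gm10222 had 48.5, 53.8 and 36.4 CPM against 56.2, 64.9 and 61.8 CPM. For each of them the highest HFD library lay below the lowest LFD library, by the smallest margin for Gm10222.

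The diverged copies had the largest of the 6 changes. Gm13340 had 98.6, 117 and 56.0 CPM on HFD and 180, 175 and 159 CPM on LFD, and Gm13339 had 61.3, 51.4 and 29.8 CPM against 101, 70.4 and 93.5 CPM. HFD library c was the lowest for both. Gm28438, well counted in morulae with 204 to 343 counts, had 20.9, 18.5 and 16.2 CPM on HFD and 28.0, 24.9 and 26.9 CPM on LFD. The log2 changes were -0.92 ± 0.19 for Gm13340, -0.90 ± 0.21 for Gm13339, -0.82 ± 0.16 for Gm10925, -0.60 ± 0.12 for Gm28661, -0.52 ± 0.17 for Gm28438 and -0.40 ± 0.15 for Gm10222. The median was -0.71, beside 0.01 over the 13447 genes tested.

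The groups of all 6 copies did not overlap, with HFD lower, and this held for 6.18% of the genes tested. With library totals it was again all 6, and 5.29% of genes. The median without HFD library c was -0.62. No gene of the 13447 (0%) was called by edgeR, 858 had an unadjusted p under 0.05, and DESeq2 called 9 (0.0669%). The share of mtDNA counts, 23.8 to 26.9% on HFD and 22.8 to 26.1% on LFD, overlapped between the diets. The 8 morula markers summed to 3043 to 3618 CPM on HFD and 3506 to 3788 CPM on LFD by library totals and overlapped with TMM too, and of the epididymal markers at most 1 was detected, at up to 0.169 CPM. The 6 gastrocnemius markers, of which 1 to 4 were detected, were higher on HFD without overlap with TMM, at 25.1 to 33.5 against 21.6 to 25.0 CPM, and overlapped by library totals. Most of their sum was Mylpf, a myosin light chain, at 280 to 410 counts on HFD and 251 to 275 on LFD, while Myh4 and Tnnt3 were at 0, and its part in the values of the copies was not tested. For 3 morula samples a description names the other diet than the title and the treatment label, which were used here. The diet of a library was read from letters in its column name together with the titles. Which libraries the conflict concerns is therefore not known.

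Among the protein genes of mtDNA in morulae, 3 had the lowest changes. mt-Atp6, mt-Co2 and mt-Co3, nearly all of whose windows are also in a nuclear copy, had changes of -0.98 ± 0.19, -0.82 ± 0.17 and -0.88 ± 0.21, each with an adjusted p of 0.456 in edgeR and with groups that did not overlap. mt-Nd3 and mt-Nd4l, shared to the same extent, had -0.09 ± 0.11 and -0.18 ± 0.11. The 8 other protein genes ran from -0.36 (mt-Atp8) to 0.17 with a median of 0.11. The shares count annotated copies only, and mt-Atp8 (MT:7766-7969) lies mostly between the partners of Gm28661 and Gm10925, where the sequence of the block was not compared with mtDNA. The changes of mt-Co1 and mt-Nd2 were 0.07 ± 0.07 and 0.03 ± 0.10. Of all 33 mtDNA genes tested, 26 had positive and 7 negative changes with a median of 0.16. None was called by edgeR with the filter and 7 had an unadjusted p under 0.05, while DESeq2 called mt-Co2 lower. The tRNA genes lay on the other side, with 18 of 18 tested positive, from 0.08 (mt-Tf) to 1.80 (mt-Tw) with a median of 0.74. None of these 18 was called by edgeR with the filter or by DESeq2, while edgeR with no filter called mt-Tc and mt-Tl2 higher. An unadjusted p under 0.05 was found for 4, and with TMM the groups overlapped for all 18. mt-Tl2 had 25, 96 and 127 counts in LFD libraries a, b and c and 52, 231 and 282 counts in HFD libraries a, b and c, so that library a was the lowest on both diets. The 3 protein genes with the lowest changes had few counts, with 550 to 1866 counts for mt-Atp6, 386 to 943 for mt-Co2 and 103 to 232 for mt-Co3, beside 974 to 1151 for mt-Nd3 and 127739 to 150914 for mt-Co1.

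**Figure D4:**
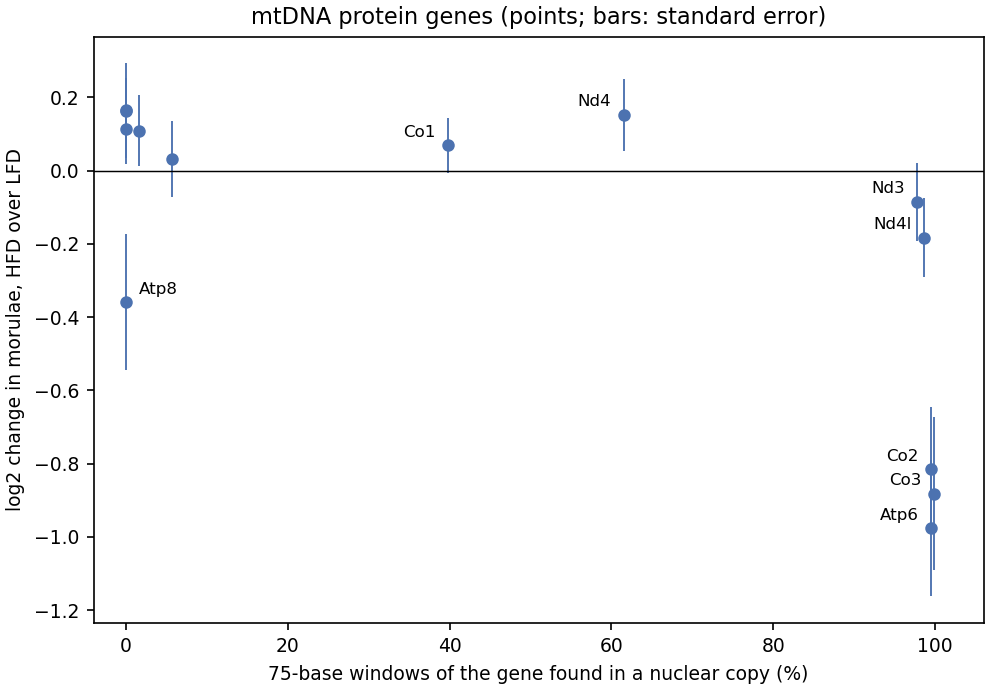
Share of the 75-base windows of each mtDNA protein gene that is also found in a nuclear copy, in percent, against the log2 change HFD over LFD in morulae with its SE. mt-Atp6, mt-Co2 and mt-Co3, with shares above 99%, lie at -0.98, -0.82 and -0.88, mt-Nd3 and mt-Nd4l, with shares of 97.8 and 98.7%, at -0.09 and -0.18, and the genes with lower shares at -0.36 to 0.17. The lowest of these is mt-Atp8, whose share of 0% is over annotated copies only.

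Among the 10 other copies 8 were tested in morulae, all with negative changes from -0.90 to -0.46 and a median of -0.69. None was called by edgeR with the filter or by DESeq2, 5 had an unadjusted p under 0.05 and the lowest adjusted p in edgeR was 0.456. With no filter edgeR called 3 of the other copies lower. The groups of 6 of the 8 did not overlap. Their neighbours in the blocks were among them, with -0.81 ± 0.20 for Gm28439, -0.55 ± 0.18 for Gm28437, a copy of mt-Co3, and -0.52 ± 0.12 for Gm29216, a partial copy of mt-Co1.

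A ratio of copy to matching mtDNA gene within a library does not depend on the scaling between libraries. In morulae Gm13340 had 12.9 to 17.2 counts per 1000 mt-Co1 counts on LFD and 4.66 to 9.95 on HFD, a log2 ratio change of -1.06 with a pooled SD of 0.42. Gm13339 had 6.95 to 11.0 counts per 1000 mt-Nd2 counts on LFD and 3.43 to 5.44 on HFD, a change of -0.96 with an SD of 0.34. Gm28438 had 248 to 314 per 1000 mt-Nd3 counts on LFD and 177 to 237 on HFD (-0.44, SD 0.20). These 3 ratios did not overlap between the diets, and the fitted changes of the mtDNA partners were 0.07, 0.03 and -0.09. No share over other genes was worked out for ratios, and the copies were chosen on this contrast. The separation of these ratios is therefore a description and was not tested.

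For the identical copies the ratio overlapped. Gm10925 was counted more often than mt-Atp6 itself, with 2122 to 2683 per 1000 mt-Atp6 counts on LFD and 2311 to 3280 on HFD (0.19, SD 0.22), and Gm28661 had 1371 to 1836 per 1000 mt-Co2 counts on LFD and 1555 to 2319 on HFD (0.24, SD 0.26). Gm10222 had 575 to 602 per 1000 mt-Nd4l counts on LFD and 391 to 649 on HFD (-0.23, SD 0.26). Copy and mtDNA gene thus had negative changes of like size for Gm10925 and Gm28661, whereas for Gm13340 and Gm13339 the copy alone had one. In sperm only the diverged copies had a usable partner, and their ratios overlapped: 6.44 to 15.1 (HFD) and 7.29 to 8.42 (LFD) per 1000 mt-Co1 counts for Gm13340, and 3.03 to 3.97 (HFD) and 2.39 to 5.80 (LFD) per 1000 mt-Nd2 counts for Gm13339.

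**Figure D5:**
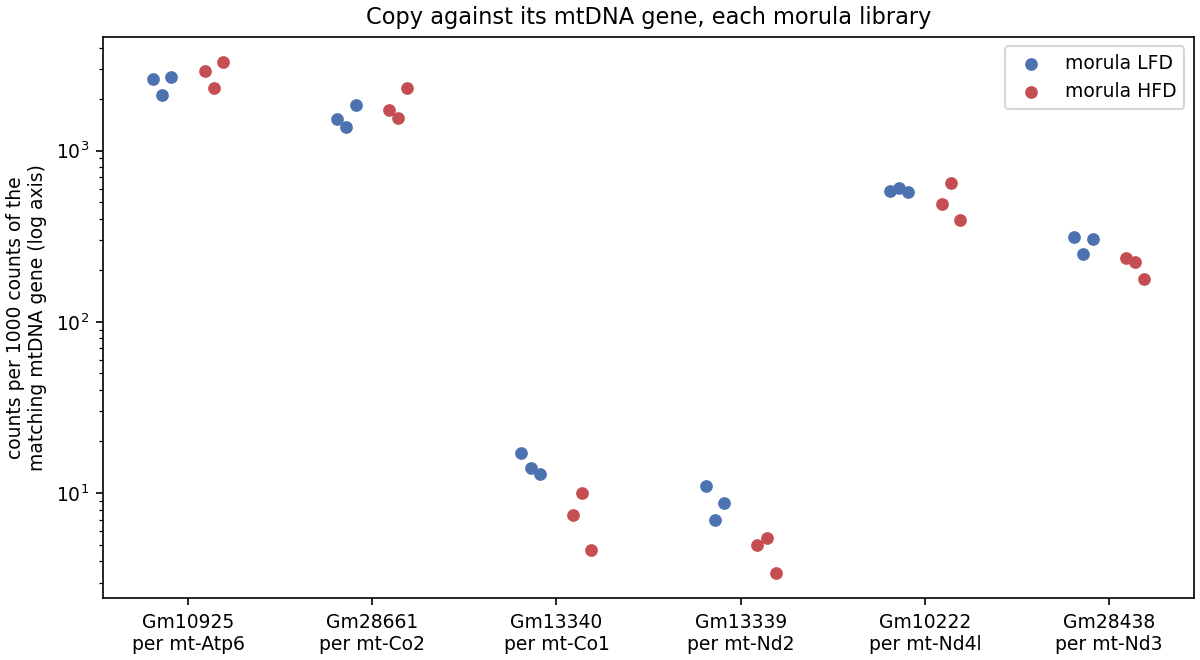
Counts of each copy per 1000 counts of its matching mtDNA gene in each morula library, on a log axis, by diet. Gm10925 and Gm28661 lie above 1000 in every library with diets overlapping, and Gm13340 and Gm13339 lie at 12.9 to 17.2 and 6.95 to 11.0 on LFD, above all HFD libraries at 4.66 to 9.95 and 3.43 to 5.44.

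Between cell types, a comparison within 1 diet uses libraries on which the copies were chosen. With TMM the copies were lower in sperm and higher in morulae on LFD than on HFD. Each diet thus leans the comparison one way, and its values are given with no test. Cell type and read layout cannot be told apart in any of these comparisons. Scaled together on LFD, Gm10925 had 18.9, 17.9 and 12.1 CPM in sperm and 339, 235 and 288 CPM in morulae, a log2 change, sperm over morulae, of -4.15 ± 0.28. The change on LFD was -4.12 ± 0.52 for Gm28438, -3.27 ± 0.36 for Gm13339, -3.02 ± 0.33 for Gm28661 and -1.54 ± 0.24 for Gm10222. In these 5 each sperm library lay below each morula library, while Gm13340 overlapped, with 118, 140 and 52.1 CPM in sperm and 153, 148 and 133 CPM in morulae (-0.49 ± 0.34). Of the 13290 genes tested 39.9% were lower in sperm on LFD without overlap. By library totals all 6 copies were lower without overlap, Gm13340 with 62.5 to 100.3 CPM in sperm and 156 to 181 CPM in morulae, as were 44.3% of genes.

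On HFD the changes depended on the scaling. With TMM the change was 2.85 ± 0.45 for Gm13340 and 1.40 ± 0.35 for Gm10222, -0.87 ± 0.33 for Gm10925, -0.61 ± 0.51 for Gm28438, 0.04 ± 0.34 for Gm28661 and -0.03 ± 0.45 for Gm13339. By library totals it was 0.60 ± 0.44 for Gm13340, -0.86 ± 0.37 for Gm10222 and -2.20 ± 0.37 for Gm28661. For the rest it was -2.29 ± 0.43 for Gm13339, -2.79 ± 0.53 for Gm28438 and -3.12 ± 0.35 for Gm10925. Gm10222 was thus above morulae in sperm on HFD with TMM and below them by totals, and with TMM Gm28661 and Gm13339 lay within 1 SE of 0.

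The mean over both diets, which weights HFD and LFD alike, was tested in a fit of all 12 libraries. Of the 6 copies 4 were lower in sperm and 1 higher, and of the 15416 genes tested 38.6% were lower and 32.8% higher. The 4 include Gm28438, which did not pass the filter in the fit of sperm alone and had only 2 to 15 counts there. Its call was therefore not read as a result. Gm10925 was lower, with a change of -2.69 ± 0.22 (edgeR adjusted p = 1.44e-07). The change of Gm28438 was -2.53 ± 0.35, given with no test. Gm13339 was lower, with -1.82 ± 0.29 (edgeR adjusted p = 8.10e-05), as was Gm28661, with -1.66 ± 0.24 (adjusted p = 2.94e-05). These 4 include copies without a mismatch to mtDNA, Gm10925 and Gm28661, and the diverged Gm13339. Gm13340, the copy of mt-Co1, was higher in sperm, with 1.01 ± 0.29 (edgeR adjusted p = 0.00635), and Gm10222 had -0.25 ± 0.21 (adjusted p = 0.298). By library totals Gm13340 had -0.23 (adjusted p = 0.456) and Gm10222 -1.40 (adjusted p = 0.0003), so the calls of these copies depended on the scaling, which moved the median of all genes from -0.32 to -1.44. Of the 9 other copies tested 6 were higher in sperm and 1 lower with TMM. Among them were Gm13341, a copy of mt-Co2 beside Gm13340, with 3.80 ± 0.34 (edgeR adjusted p = 3.15e-07), and Gm28439, beside Gm10222, with -2.33 ± 0.27 (adjusted p = 4.54e-06). The 6 include Gm11512, which had at most 5 counts in a morula library and passed the filter through sperm only. Its call was not read as a result either. By library totals edgeR did not call Gm28437 and Gm11407, and called Gm29216 (-1.62) and Gm4076 (-0.997) lower.

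The order of the copies by level differed with the cell type. Levels here are CPM by library totals per kilobase of annotated length. In morulae on LFD Gm10925 had the highest median at 498 (403 to 591), followed by Gm10222 at 206 (193 to 216), Gm13339 at 180 (135 to 199), Gm28661 at 166 (139 to 180), Gm13340 at 111 (101 to 117) and Gm28438 at 76.5 (70.8 to 81.9). Only the middle of this order, Gm10222, Gm13339 and Gm28661, had ranges that overlapped their neighbours. On HFD the first and second were again Gm10925 at 292 and Gm10222 at 158, followed by Gm28661 at 108, Gm13339 at 103, Gm13340 at 61.2 and Gm28438 at 54.7, and each of the last 4 overlapped its neighbours in that run.

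In sperm on LFD the medians per kilobase were 52.9 for Gm13340 (40.4 to 64.9), 43.5 for Gm10222 (37.4 to 78.4), 19.2 for Gm10925 (18.9 to 21.3), 13.8 for Gm13339 (7.40 to 16.7), 12.6 for Gm28661 (11.6 to 17.3) and 2.26 for Gm28438 (1.90 to 4.97). The first and second overlapped, as did Gm13339 and Gm28661. On HFD the order was Gm10222 at 84.6, Gm13340 at 73.9, Gm10925 at 33.0, Gm28661 at 23.5, Gm13339 at 18.7 and Gm28438 at 7.74, with overlap between the first and second and between Gm28661 and Gm13339.

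Of the counts of all 6 copies together, Gm13340 held 53.7 to 70.4% in sperm and 15.9 to 24.0% in morulae, whereas Gm10925 held 7.60 to 13.4% in sperm and 37.9 to 46.4% in morulae. These shares do not depend on scaling, and neither overlapped between the cell types. The shares of Gm28661, Gm13339 and Gm28438 were also lower in sperm without overlap, and those of Gm10222 overlapped. Shares within a library are tied, since a higher share of Gm13340 leaves less for the rest. The 6 copies summed to 715 to 863 CPM in morulae on LFD, 365 to 522 CPM in morulae on HFD, 156 to 294 CPM in sperm on HFD and 116 to 147 CPM in sperm on LFD.

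Over the 12 libraries, which differ in cell type, read layout and depth, the level of Gm13340 was ordered unlike that of the other copies. Its Spearman correlation with each of them was 0.53 to 0.59, while the other 5 were at 0.89 to 0.98 with each other. Among 14453 genes the nearest to Gm13340 that are not among the 6 were Gm28437 and Gm11407 (both 0.85) and Gm4076 (0.77), all of them nuclear copies of mtDNA. Leaving out the 6 copies themselves, the nearest to Gm10925 were Gm10110, Tead4 and Gm10012 (0.96 each), to Gm28661 Gm28439, Elavl2 and Gm7389 (0.96 to 0.97), to Gm13339 Gm5511, Gm49037 and Elavl3 (0.96 each), and to Gm10222 Elavl2, Gm28439 and Lhx2 (0.95 to 0.97). For Gm28438 they were Gm10110, Gm17067 and Gm10036 (0.96 each), below its 0.98 with Gm10925. Tead4 encodes a transcription factor of the trophectoderm and Elavl2 an RNA-binding protein. Many genes with higher levels in morulae would give such values, and they are given as a description.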

How the data were processed

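RNA was sequenced from cauda spermatozoa and morulae on an Illumina HiSeq. The deposited values are raw counts of reads per gene, made by the authors on GRCm38; the treatment of reads with several matches and the strand setting are not given in the sources used here. Gene IDs were matched to symbols of GENCODE M21 (55141 of 55487 in morulae, 54723 of 54838 in sperm). A further 24 columns, in tables of other tissues and round spermatids, were not used because nothing in their names ties them to a labelled sample or group, so comparisons with those cells were not run. Counts were fitted per comparison with edgeR 4.0.16 (R 4.3.3; filterByExpr with a minimum count of 10, TMM, quasi-likelihood test, Benjamini-Hochberg adjustment over all genes tested, threshold 0.05), which had been tested on simulated data. DESeq2 1.42.0 was an alternative. Copies were found with BLAST 2.17.0 of annotated transcripts against the mtDNA genes (at least 90% identity over 80% of the length), and windows of 75 and 50 bases were matched exactly. Log2 ratios of copy to mtDNA gene used a pseudocount of 0.5. Other alternatives were DESeq2 size factors, library totals, TMM on other nuclear genes, no filter, leaving out each library and a replicate block. Scaling by mtDNA totals, the use of ratios only where the mtDNA gene had 10 counts in every library, the fits of sperm against morulae over both diets and on HFD, the list of other copies with its thresholds, the overlap of groups by library totals and marker levels with TMM were chosen after seeing the data.

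Members and lists were chosen with earlier results of these data known. Genes named are the 6 copies, their mtDNA partners and annotated genes within 5 kb with 10 or more counts in every library. Also named are the 3 genes nearest in Spearman correlation of log2(CPM + 1) among those with a mean of at least 1 CPM. Outside this rule, those chosen after their values were seen are mt-Co3, mt-Atp8, mt-Tf, mt-Ti, mt-Tl2, mt-Tm, mt-Tw, mt-Tc, Gm11408, Gm11410, Gm11512 and Myo3a. From the marker lists they are Crisp1, Spint4, Lcn5, Lcn8, Mylpf, Myh4 and Tnnt3. Library letters follow the order of column names. Replicates differed by a chi-square per degree of freedom of at least 8.19 in morulae and 18.9 in sperm, so none was counted as a duplicate. p-values measure only the spread between these libraries. Python 3.11.15 and matplotlib 3.10.9 made the figures.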

Additional observations from a re-analysis of the deposited data

Results flagged for a closer look

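For each of the 6 copies the change with diet in sperm was opposite to that in morulae, with all HFD libraries above all LFD libraries in sperm and below them in morulae. With TMM 8.21% of the genes tested had all HFD libraries above all LFD libraries in sperm, and 6.18% had them below in morulae. The log2 change in sperm minus that in morulae was 3.35 for Gm13340, 3.27 for Gm10925, 3.24 for Gm13339, 3.23 for Gm28438, 3.05 for Gm28661 and 2.93 for Gm10222, and the difference was not tested. The copies were chosen on these contrasts, so the values are a description. The sperm value of Gm28438, 2.71, comes from the fit with no filter on low counts. By library totals the groups in sperm overlapped for Gm13340, Gm13339, Gm10222 and Gm28438, and 0.555% of genes had all HFD libraries higher.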

How the results depend on the processing

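The median log2 change of the copies in sperm, 2.45 with TMM, was 0.72 with library totals, 0.17 with totals of mtDNA counts (chosen after seeing the data), 2.95 with a replicate block, and 2.18 to 2.70 when each library was left out in turn. Of the 5 tested copies all kept a positive value in each of these fits. The lowest value of each copy was only 0.03 (Gm13339) to 0.25 (Gm13340), beside SEs of 0.51 to 0.70 with TMM. By totals of mtDNA counts no copy separated the diets. In morulae the median was -0.81 to -0.62 when each library was left out, and all 6 stayed negative. mtDNA genes called higher on HFD in sperm numbered 14 with DESeq2 against 0 with edgeR. In morulae edgeR with no filter called 2 mtDNA genes higher (mt-Tc and mt-Tl2) and 2 lower (mt-Co2 and mt-Atp6), and 3 of the other copies lower, and DESeq2 called 1 mtDNA gene lower (mt-Co2). Over all genes edgeR with no filter called 41 in sperm and 63 in morulae against 0 with the filter, and in sperm library totals called 3266 and mtDNA totals 4980, nearly all of them lower on HFD. Genes with groups that did not overlap in sperm were 710 higher and 1054 lower on HFD with TMM, and 48 and 4940 with library totals. With the summed mtDNA counts as denominator the log2 ratio change of Gm13339 in sperm went from -0.16 to 0.11, and in morulae that of Gm10925 from 0.19 to -0.86 and that of Gm28661 from 0.24 to -0.62. The cause of these differences was not tested. Between sperm and morulae the number of copies with a negative change, given with no test within a diet, was 6 with the LFD libraries, 3 with the HFD libraries and 5 with these by library totals. The changes in sperm over morulae with another sign than on LFD were those of Gm10222 (1.40), Gm13340 (2.85) and, within its SE of 0.34, Gm28661 (0.041) with the HFD libraries and TMM, that of Gm13340 alone (0.60) with the HFD libraries and library totals, and that of Gm13340 (1.01) with the mean of both diets, where library totals gave -0.23 for Gm13340 and 0 copies higher. HFD libraries and the mean of both diets were chosen after seeing the data. The copies called with that mean, 4 lower beside 38.6% of genes and 1 higher beside 32.8%, kept these counts without each library in turn. The 4 include Gm28438, which did not pass the filter in the fit of sperm alone and whose call was not read as a result. In sperm 2 of the numbers in the column names occur under both diets, with correlations of deviations of 0.105 and -0.149. Other pairs of an HFD and an LFD library had -0.243 to 0.280, so 2 pairs cannot tell whether such libraries share more than a number. The block left 1 residual degree of freedom and called 2 genes against 0. No paired analysis was possible in morulae because the columns share no numbers. The precision is lowest for Gm28438 in sperm, at 2 to 15 counts, and no change could be followed for mt-Co2, mt-Nd4l and mt-Atp6 there, at 0 or 1 counts. Comparisons planned with other tissues and round spermatids were not run.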
